A study of Rattus norvegicus with 9 samples.

Results

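Ccl17, Ccl22, Ccr7 and Zbtb46 were followed through the alveolar macrophages of rats given nitrogen mustard (NM) into the trachea. They are 4 of the 17109 genes of the deposited FPKM table (fragments per kilobase of transcript, scaled to the mapped fragments of the library), and each had 1 transcript row. The genes were picked from earlier results of the same libraries, in which their levels in all 3 groups were known, so their differences are described here without a test.

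Alveolar macrophages are the resident phagocytes of the air spaces, and they were collected from male Wistar rats by massaging the lung. NM (mechlorethamine hydrochloride, 0.125 mg/kg) cross-links DNA by alkylation. The 9 libraries form 3 groups of 3 biological replicates, numbered 0, 1 and 2 and written below as PBS-0 or NM28d-2: rats given phosphate-buffered saline (PBS), rats 1 d after NM (NM day 1, NM1d) and rats 28 d after NM (NM day 28, NM28d). Both NM groups are compared with the same PBS libraries, whose day of collection was not given in the sources used here.

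Ccl17 and Ccl22 encode secreted chemokines that share the receptor Ccr4, carried by subsets of helper and regulatory T cells, and both are made by activated macrophages and dendritic cells. Ccr7 encodes the receptor for Ccl19 and Ccl21, the chemokines that draw mature dendritic cells and naive T cells towards lymph nodes. Zbtb46 encodes a transcription factor of conventional dendritic cells that is also found in endothelium. Ccl17 and Ccl22 are therefore T cell attractants, while Ccr7 is a receptor and Zbtb46 a marker of the dendritic lineage.

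The cell type label was checked first. Cd68 (724 to 1355 FPKM), the mannose receptor Mrc1 (201 to 419 FPKM) and the fatty acid binding protein Fabp4 (172 to 927 FPKM) were abundant in all 9 libraries. The scavenger receptor Marco, another marker of these cells, was listed at 0 in all 9. Other markers of the same list differed in PBS. Pparg stood at 177 ± 2.78 FPKM, but Chi3l1 at 2.47 ± 1.07 FPKM and Car4 at 0.255 ± 0.317 FPKM (SD, n = 3). The sum of 8 resident macrophage markers spanned 1557 to 2940 FPKM in PBS, 1624 to 1824 FPKM at NM day 1 and 1834 to 2061 FPKM at NM day 28. PBS overlapped both NM groups, and NM day 28 lay above NM day 1 by a small margin. Relative depth, read from the commonest ratio of FPKM values under 1, ran from 1.42 to 2.58 in PBS, 1.00 to 1.47 at NM day 1 and 1.03 to 1.12 at NM day 28, relative to 1 in NM1d-0.

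Ccl17 had the highest mean of the 4 genes in each group. It stood at 2.95, 1.33 and 3.47 FPKM in PBS replicates 0, 1 and 2, at 134, 264 and 148 FPKM at NM day 1, and at 4.38, 2.26 and 15.2 FPKM at NM day 28. The 3 NM day 1 libraries lay above all others, while NM day 28 overlapped PBS, with replicates 0 and 2 above the highest PBS library and replicate 1 inside the PBS range. Group means were 2.58 ± 1.12 FPKM in PBS, 182 ± 71.2 FPKM at NM day 1 and 7.28 ± 6.94 FPKM at NM day 28 (SD, n = 3). The NM day 1 mean was 70.4 times the PBS mean, and the difference was 5.66 on the log2(FPKM + 1) scale, the 5th highest of the 9885 genes tested. Within the libraries, Ccl17 exceeded 93.8% to 97.0% of the genes above 0 at NM day 1, against 21.3% to 28.8% in PBS and 19.0% to 52.4% at NM day 28.

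Ccl22 went from 0.235, 1.52 and 0.852 FPKM in PBS replicates 0, 1 and 2 to 38.8, 50.6 and 39.0 FPKM at NM day 1, and stood at 1.51, 0.585 and 1.98 FPKM at NM day 28. It varied least among the NM day 1 libraries (coefficient of variation 15.8%, against 39.1% for Ccl17, 39.4% for Ccr7 and 39.6% for Zbtb46). Its mean was 0.868 ± 0.642 FPKM in PBS, 42.8 ± 6.78 FPKM at NM day 1 and 1.36 ± 0.708 FPKM at NM day 28 (SD, n = 3). The NM day 1 mean was 49.3 times that of PBS, a log2 difference of 4.60 that ranked 13th from the top. NM day 28 overlapped PBS, with replicate 1 inside the PBS range and replicate 0 below the highest PBS library.

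FPKM is a level per length, so the levels of both ligands can be set side by side. Ccl17 was 3.45, 5.21 and 3.81 times Ccl22 in NM day 1 replicates 0, 1 and 2. The ratio was 2.91, 3.87 and 7.70 at NM day 28, and 12.6, 0.878 and 4.08 in PBS, where both levels were low. Ccl17 was thus the more abundant ligand in 3 of 3 NM day 1 and 3 of 3 NM day 28 libraries, and the ratio did not separate the groups. At NM day 1 the order was Ccl17, Ccl22, Ccr7, Zbtb46, and no neighbours in it overlapped. In PBS the FPKM ranges of Ccl17 and Ccl22 overlapped, as did those of Ccl22 with Zbtb46 and with Ccr7, and Ccr7 was the lowest of the 4 in each PBS library. At NM day 28 Ccl17 was the highest of the 4 in each library, and the ranges of Ccl22, Ccr7 and Zbtb46 overlapped.

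Because both ligands were high in the same group, the 250 bases before their transcription starts are shown, from RefSeq on the build GRCr8. Coordinates of that build cannot be set against rn4, the build of the deposited data. Of the 4 genes, Ccl17, Ccl22 and Zbtb46 had a promoter entry. Capitals mark matches, on either strand, to 6 motifs: the kappaB consensus of NF-kappaB, TTC and GAA with 4 bases between them (the spacing preferred by Stat6, the effector of interleukin 4), TTCNNNGAA (with 3 bases between, the spacing of other STAT factors), GAAA repeated after 2 bases (interferon regulatory factors), TGANTCA (AP-1) and TATAAA (the TATA box).
Ccl17, chr19:10209896-10210145, minus strand: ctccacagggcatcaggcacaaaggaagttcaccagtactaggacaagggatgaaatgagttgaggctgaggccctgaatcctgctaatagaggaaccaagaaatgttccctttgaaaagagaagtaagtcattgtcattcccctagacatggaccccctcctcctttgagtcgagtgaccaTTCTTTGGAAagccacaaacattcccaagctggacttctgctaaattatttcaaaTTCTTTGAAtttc
Ccl22, chr19:10270360-10270609, minus strand: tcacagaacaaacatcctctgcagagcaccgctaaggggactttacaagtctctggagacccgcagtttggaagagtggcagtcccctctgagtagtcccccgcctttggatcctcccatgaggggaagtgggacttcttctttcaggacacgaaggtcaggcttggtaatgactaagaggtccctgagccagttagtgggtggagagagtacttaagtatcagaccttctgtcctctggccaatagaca
The Ccl17 window held TTCTTTGGAA, a match to the 4-base spacing, from -68 to -59 and TTCTTTGAA, a match to TTCNNNGAA, from -13 to -5, counted back from the start with -1 as the last base before it. Among 33469 windows of the same length, 6.25% held the 4-base spacing and 7.67% TTCNNNGAA. The Ccl22 window held none of the 6, which says only that these letters are not in these 250 bases. Shares of windows with the other motifs were 6.33% for kappaB, 3.41% for the GAAA repeat, 6.34% for TGANTCA and 12.9% for TATAAA. The window of Zbtb46 held TATAAA on the other strand, from -38 to -33.

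Ccr7, the receptor, was close to absent in PBS, at 0.117, 0.163 and 0.426 FPKM in replicates 0, 1 and 2. It stood at 14.6, 10.3 and 6.38 FPKM at NM day 1 and at 0.282, 2.04 and 0.538 FPKM at NM day 28. The NM day 1 libraries lay above all others, and at NM day 28 replicates 1 and 2 stood above the highest PBS library while replicate 0 was below it. The mean was 0.235 ± 0.167 FPKM in PBS, 10.4 ± 4.10 FPKM at NM day 1 and 0.953 ± 0.949 FPKM at NM day 28 (SD, n = 3). The ratio of the NM day 1 mean to the PBS mean was 44.2, close to that of Ccl22, but the addition of 1 FPKM reduced the log2 difference to 3.15 (56th from the top).

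The low values may rest on few fragments, whose number is not in the table. Multiplied by relative depth, the PBS and NM day 28 values of Ccr7 fell within 0.05 of whole multiples of the smallest. If that smallest value is 1 fragment, Ccr7 had 1, 1 and 2 fragments in PBS, 1, 7 and 2 at NM day 28, and about 48, 46 and 31 at NM day 1. By the same reading, Ccl22 had 3, 14 and 6 fragments in PBS and 8, 3 and 11 at NM day 28, and Zbtb46 had 11, 8 and 13 in PBS, 16, 46 and 30 at NM day 1, and 5, 7 and 16 at NM day 28. These are the fewest fragments that whole numbers allow, and the true numbers may be multiples of them. For Ccl17 no multiple up to 10 of its smallest value gave whole numbers.

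Zbtb46 differed least. It stood at 0.510, 0.515 and 1.10 FPKM in PBS replicates 0, 1 and 2, at 1.92, 4.05 and 2.44 FPKM at NM day 1 and at 0.560, 0.811 and 1.71 FPKM at NM day 28. The lowest NM day 1 library was above the highest PBS library and above the highest NM day 28 library, the last by a small margin, and NM day 28 replicates 0 and 1 lay inside the PBS range. Means were 0.707 ± 0.337, 2.80 ± 1.11 and 1.03 ± 0.602 FPKM in PBS, NM day 1 and NM day 28 (SD, n = 3). The NM day 1 mean was 3.97 times the PBS mean, a log2 difference of 1.13 that ranked 402nd from the top.

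**Figure D1:**
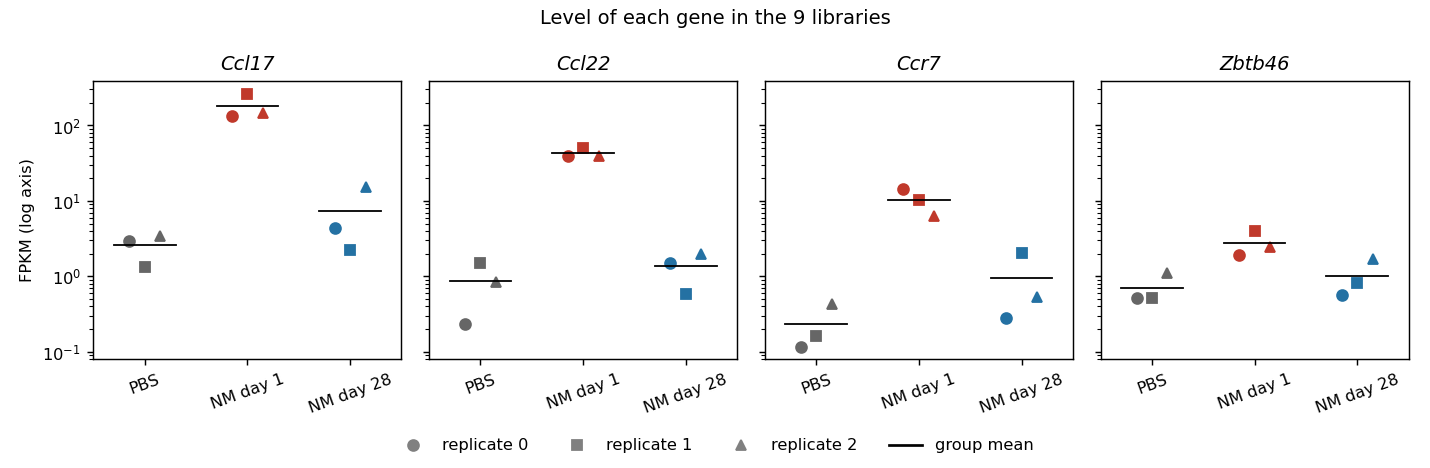
FPKM of Ccl17, Ccl22, Ccr7 and Zbtb46 (log axis) in the 9 libraries, by group, with the replicate number as the symbol and the group mean as a line. The 3 NM day 1 libraries lie above all PBS and NM day 28 libraries for each gene, and NM day 28 overlaps PBS for each gene.

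The NM day 1 libraries lay above all PBS libraries for each of the 4 genes, as they did for 15.2% of the 9885 genes tested (18.1% lay wholly below), and the genes were picked with this pattern known. The libraries with the highest values were not the same for every gene. Ccl17, Ccl22 and Zbtb46 were highest in replicate 1 of NM day 1, whereas Ccr7 was highest in replicate 0. At NM day 28, Ccl17, Ccl22 and Zbtb46 were highest in replicate 2, whereas Ccr7 was highest in replicate 1. In PBS, replicate 2 was highest for Ccl17, Ccr7 and Zbtb46, and replicate 1 for Ccl22.

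Between the NM groups, NM day 28 was below NM day 1 by log2 differences of -4.73 for Ccl17, -4.25 for Ccl22, -2.58 for Ccr7 and -0.91 for Zbtb46. The groups did not overlap for any of the 4, which was the case in this direction for 15.7% of genes tested (15.1% in the other). Against PBS, the log2 differences at NM day 28 were 0.93 for Ccl17, 0.35 for Ccl22, 0.56 for Ccr7 and 0.22 for Zbtb46. Each of these groups overlapped PBS, against 12.7% of genes tested with NM day 28 wholly above PBS and 14.4% wholly below. The difference of Ccl17 was 0.28 without NM28d-2 and 1.43 without NM28d-1. For Ccl22 it was 0.077 without PBS-0 and 0.61 without NM28d-1, for Ccr7 0.19 without NM28d-1, and for Zbtb46 -0.004 without NM28d-2.

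Genes with the most similar profile were named by the root mean square difference of log2(FPKM + 1) over the 9 libraries, after each gene was centred on its own mean. For Ccl17 they were the matrix protein gene Tgfbi (0.66 log2 units), Ccl22 itself (0.74), the C-type lectin Clec10a (0.76), the monocyte chemokine Ccl7 (0.79) and a transcript row without a symbol (0.88). For Ccl22 they were Cd74, the invariant chain of MHC class II (0.37), Klrk1, an activating lymphocyte receptor (0.38), the class II gene RT1-Da (0.39), Adgrg5 (0.43) and Klri1 (0.51). Reads of RT1 and Klr genes may be shared with near-identical copies. For Ccr7 they were the adenylate cyclase Adcy5 (0.47), Tifab (0.49), the chemokine Ccl24 (0.49), a transcript row without a symbol (0.49) and Lamp3, a lysosomal membrane protein of mature dendritic cells though not of them alone (0.50). For Zbtb46 they were Limd2 (0.20), Tbc1d8 (0.23), Zfp608 (0.24), the nuclear pore gene Nup210 (0.25) and Mtus1 (0.26). These similarities are descriptions over 9 libraries in 3 groups and carry no test.

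Most receptors and ligands that pair with the 4 genes were listed at or near 0. A value of 0 in FPKM can be a failed estimate, as Marco, listed at 0 in all 9 libraries, may be. Ccr4, the receptor for Ccl17 and Ccl22, was listed at 0 in 7 of 9 libraries and at 0.255 and 0.235 FPKM in NM day 1 replicates 1 and 2. Ccl19 and Ackr2, a decoy receptor that takes up inflammatory CC chemokines, were listed at 0 in all 9 libraries, and Ccl21 at 0 in 8 of 9, with 0.33 FPKM in PBS-2. Ackr4 was not analysed here. Of this list, Ccrl2, a chemokine-like receptor, was the 1 gene that could be tested: it rose from 1.28 ± 0.682 FPKM in PBS to 5.59 ± 2.39 FPKM at NM day 1 (SD, n = 3), a log2 fold change of 1.52 with an SE of 0.35 (limma, Benjamini-Hochberg adjusted p = 0.0185). The call ended without NM1d-0, PBS-1 or PBS-2 (adjusted p = 0.0995, 0.0733 and 0.0579).

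At NM day 1, 5.28% of the 9885 genes tested were called higher than PBS and 4.58% lower (limma, adjusted p under 0.05). Counts at an unadjusted p under 0.05 are also given here and below for the lists. The share of all genes tested at that threshold is not given, so those counts have no background to be read against. Among 14 tested chemokines and receptors that guide lymphocytes, apart from the 4 genes, 5 rose and 0 fell, with 7 at an unadjusted p under 0.05 (median log2 difference 0.84, against -0.039 over all genes tested). Among them Cxcl10, a ligand of Cxcr3 on effector T cells, went from 0.683 ± 0.419 to 6.87 ± 3.40 FPKM (SD, n = 3), a rise by 2.14 on the log2 scale with an SE of 0.42 (limma adjusted p = 0.00943). Ccl1 rose by 1.94, Ccl5 by 1.57 and Ccl3 by 0.86 on the same scale. From here on, a bare value in parentheses after a gene name is its log2 difference. Calls of Ccl5 ended without NM1d-2, PBS-0 or PBS-1 (adjusted p = 0.0571, 0.0714 and 0.0608).

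In the NM day 28 libraries, where 3.07% of genes were called higher than PBS and 3.98% lower, 2 of these 14 were higher, Ccl3 (0.98) and Cxcr4 (1.72), the receptor for Cxcl12. Cxcr4 went from 18.5 ± 10.8 to 59.3 ± 18.3 FPKM (SD, n = 3), and its call ended without NM28d-0, NM28d-2, PBS-1 or PBS-2 (adjusted p up to 0.0748 by limma), so that 1 gene was left in these fits, against 4 without PBS-0. Ccl3 stood at 266 ± 40.8 FPKM at NM day 1 and 287 ± 36.2 FPKM at NM day 28, against 145 ± 14.0 FPKM in PBS (SD, n = 3). Between the NM groups, where 4.75% of genes were called higher at NM day 28 and 6.88% lower, 4 of the 14 were lower at NM day 28 and 0 higher (1 higher without NM28d-1 or PBS-0), with 7 at an unadjusted p under 0.05, and Cxcl10 (-2.48) was among the lower ones. Ccl1 and Ccl5 also passed: they stood at 4.01 ± 0.357 and 3.22 ± 2.26 FPKM at NM day 1 (SD, n = 3) and were listed at 0 in each NM day 28 library.

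Interleukin 4, granulocyte-macrophage colony-stimulating factor (Csf2) and TSLP are known inducers of Ccl17 and Ccl22. Of 17 genes of their signalling that were tested, 4 rose at NM day 1 and 0 fell, with 8 at an unadjusted p under 0.05 (median log2 difference 0.50). Irf4, a transcription factor that acts downstream of interleukin 4 and in dendritic cells, went from 1.31, 0.965 and 0.875 FPKM in PBS to 5.32, 7.25 and 4.46 FPKM at NM day 1, and stood at 1.55, 2.54 and 2.65 FPKM at NM day 28 (rise at NM day 1 by 1.69 on the log2 scale with an SE of 0.26, limma adjusted p = 0.00187). The others were Il7r (1.51), which pairs with the TSLP receptor, the kinase Jak3 (0.77) and Cish (1.05), a feedback inhibitor of cytokine signalling. Stat6 stood at 59.5 ± 9.86, 55.7 ± 8.84 and 61.4 ± 3.95 FPKM in PBS, NM day 1 and NM day 28 (SD, n = 3; limma adjusted p = 0.783 for NM day 1 against PBS), and the receptor chain Il4r at 14.0 ± 4.80, 30.6 ± 3.87 and 12.8 ± 6.97 FPKM (adjusted p = 0.0732).

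Of the cytokines themselves, Il13 was listed at 0 in every library, and Csf2 at 0 in all libraries except NM day 1 replicates 1 and 2 (0.835 and 0.759 FPKM). Il4 was listed at 0 in every library of both NM days, but above 0 in at least 1 PBS library. Tslp was not analysed here. By NM day 28, limma called 0 of the 17 against PBS, with 3 at an unadjusted p under 0.05. Against NM day 1, 6 were lower at NM day 28: Il7r (-1.52), Il4r (-1.34), Socs1 (-1.24), the interleukin 33 receptor Il1rl1 (-1.18), Irf4 (-1.04) and Cish (-1.03). Without NM1d-0, NM1d-1, PBS-0 or PBS-1, 2 genes were left higher at NM day 1 than PBS. Lower at NM day 28 than NM day 1 were 2 genes without NM1d-0 or NM28d-0 and 3 without NM1d-1 or NM1d-2. Calls that ended were those of Jak3, Cish, Irf4, Il4r and Socs1 (adjusted p up to 0.173, Cish without NM1d-0).

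Among 9 tested genes of NF-kappaB, the transcription factor family activated by inflammatory signals, 3 rose at NM day 1 and 0 fell (1 fell without NM28d-1 or NM28d-2), with 6 at an unadjusted p under 0.05. These were the regulators Bcl3 (3.21), Birc3 (3.03) and Nfkbia (1.09), while the median of the list was -0.09. Bcl3 went from 0.911 ± 0.595 to 16.3 ± 2.69 FPKM and Birc3 from 2.11 ± 0.318 to 25.3 ± 8.12 FPKM (SD, n = 3; adjusted p = 0.000452 and 2.93e-05 by limma). At NM day 28 Birc3 was above PBS (1.72) and the subunit Nfkb2 below it (-0.82). Against NM day 1, Bcl3 (-1.76), Birc3 (-1.31) and Nfkb1 (-0.51) were lower at NM day 28 and Nfkbib (0.99) was higher. Relb was not analysed here. Nfkbia lost its call at NM day 1 without NM1d-0 or PBS-1 (adjusted p = 0.0745 and 0.0693), and Nfkb2 at NM day 28 without PBS-0 or PBS-1 (0.0509 and 0.104). Against NM day 1, 1 of the 3 lower genes was left without NM1d-0, where Bcl3 (0.0674) and Nfkb1 (0.0972) did not pass, and Nfkb1 did not pass without NM1d-1, NM1d-2, NM28d-0, NM28d-2 or PBS-1 (adjusted p up to 0.136). Higher genes at NM day 28 against PBS numbered 2 without NM28d-1 or PBS-2.

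Ccr7 and Zbtb46 are best known from dendritic cells, so genes of that lineage were set beside them. Of 12 tested genes of dendritic cell maturation, 6 rose at NM day 1 and 1 fell, with 9 at an unadjusted p under 0.05 (median log2 difference 1.12). They were the co-stimulatory receptor Cd40 (2.91), Lamp3 (2.35), the checkpoint ligand Pdcd1lg2 (1.89), the co-stimulatory ligand Cd80 (1.49), Marcksl1 (1.32) and Cd200 (1.25), while the calcium channel subunit Cacnb3 fell (-0.72). Cd40 stood at 1.14, 0.476 and 0.415 FPKM in PBS, 9.47, 14.4 and 10.8 FPKM at NM day 1 and 0.550, 1.14 and 0 FPKM at NM day 28. The maturation markers Cd83 and Cd86 did not pass at NM day 1 (log2 differences of -0.21 and 1.00 with SEs of 0.20 and 0.33, limma adjusted p = 0.560 and 0.0768), and Fscn1 was not analysed here.

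Lamp3 was, like Ccr7, highest in replicate 0 of NM day 1 and in replicate 1 of NM day 28. It stood at 15.9, 6.37 and 2.13 FPKM in NM day 1 replicates 0, 1 and 2, at 0.516, 1.60 and 0.164 FPKM at NM day 28, and at 0.143, 0.693 and 0.519 FPKM in PBS. Pdcd1lg2 had 5.71, 4.03 and 0.745 FPKM and Cd80 12.3, 9.87 and 4.42 FPKM in the same NM day 1 libraries, also with replicate 0 highest and replicate 2 lowest. At NM day 28, Cd80 was highest in replicate 1 (3.9, 9.2 and 4.4 FPKM), but Pdcd1lg2 was lowest there (1.6, 0.63 and 3.7 FPKM). Cd83 was also highest in replicate 0 of NM day 1 (47.8, 40.3 and 38.9 FPKM). Cd40 and Cd86 (2.55, 3.43 and 2.01 FPKM) were instead highest in replicate 1 of NM day 1. The summed level of 15 maturation genes ran from 216 to 265 FPKM in PBS, 219 to 268 FPKM at NM day 1 and 176 to 214 FPKM at NM day 28, with Ido1 and Ebi3 listed at 0 in all 9 libraries, and its part in the levels of the 4 genes was not tested. A large part of this sum was Cacnb3 (mean 98.0 FPKM in PBS, 58.9 FPKM at NM day 1) and Cd83 (50.6 and 42.3 FPKM). Lamp3 is not confined to dendritic cells. The alveolar epithelial gene Sftpc stood at 46.1 ± 28.6, 1226 ± 882 and 28.5 ± 2.86 FPKM in PBS, NM day 1 and NM day 28 (SD, n = 3). The part of epithelium in the Lamp3 level was not tested.

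Most maturation calls at NM day 1 depended on single libraries. Higher genes numbered 1, 2, 3 and 2 without NM1d-0, NM1d-1 or PBS-0 and PBS-1. Cd40 passed in each of these fits, and calls of Lamp3, Pdcd1lg2, Cd80, Marcksl1, Cd200 and Cacnb3 were lost in at least 1 of the fits without NM1d-0, NM1d-1, NM1d-2, PBS-0, PBS-1, PBS-2 or NM28d-0 (adjusted p up to 0.203, Cd200 without NM1d-0). At NM day 28, Cd200 (1.75) was higher than PBS and Cacnb3 (-0.76) lower, and Cd40 (-3.06), Lamp3 (-2.13) and Marcksl1 (-1.87) were lower than at NM day 1. Against PBS, the NM day 28 call of Cd200 ended without NM28d-2 or PBS-1 (adjusted p = 0.0541 and 0.0518) and that of Cacnb3 without NM28d-0, NM28d-2, PBS-0 or PBS-1 (up to 0.124). The fall of Lamp3 from NM day 1 did not pass without NM1d-0, NM1d-1, NM28d-0 or NM28d-2 (up to 0.0683).

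**Figure D2:**
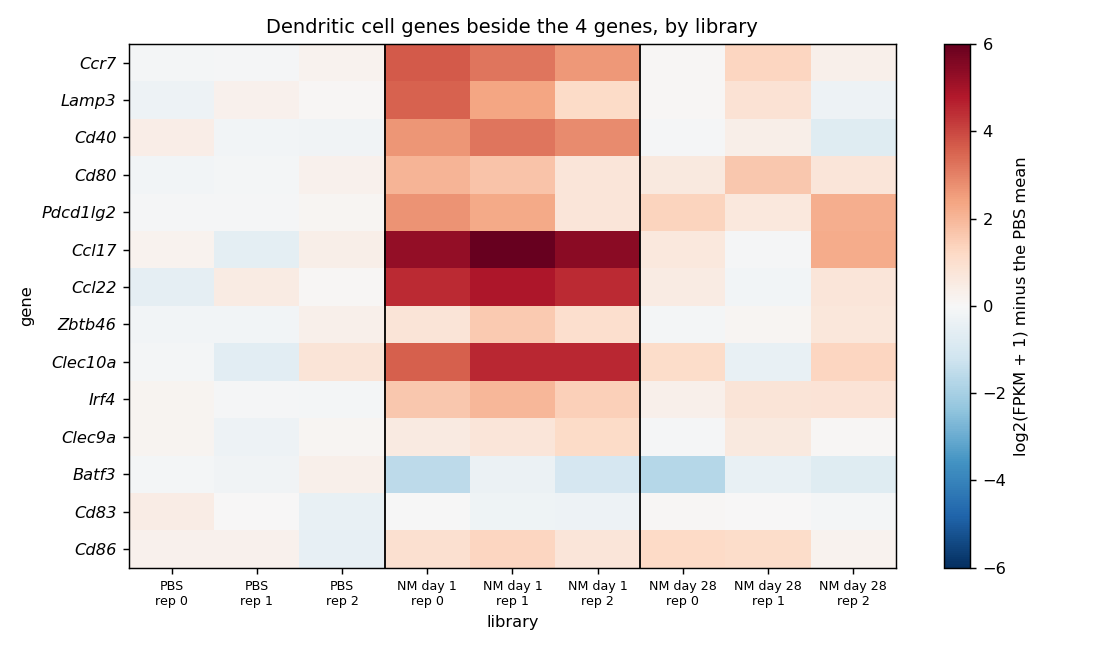
Difference of log2(FPKM + 1) from the PBS mean (colour, red for higher) for 14 genes in the 9 libraries, PBS, NM day 1 and NM day 28 from left to right. Within NM day 1, Ccr7, Lamp3, Cd80, Pdcd1lg2 and Cd83 are highest in replicate 0. Ccl17, Ccl22, Zbtb46, Cd40, Cd86, Irf4 and Batf3 are highest in replicate 1, and Clec10a and Clec9a in replicate 2. The genes drawn were chosen after their values were seen.

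Of 7 tested genes of conventional dendritic cell identity, 3 rose at NM day 1, Clec10a (4.22), Cd24 (1.36) and Irf8 (0.88), and the receptor Sirpa fell (-0.70), with 7 at an unadjusted p under 0.05. Clec10a, a lectin found on dendritic cells and on alternatively activated macrophages, stood at 1.40, 0.647 and 3.39 FPKM in PBS, 30.2, 58.7 and 59.4 FPKM at NM day 1, and 4.49, 0.929 and 5.35 FPKM at NM day 28. Clec9a and Xcr1, which define the cross-presenting subset, had 9.02, 10.6 and 14.4 FPKM and 0.786, 1.16 and 0.321 FPKM at NM day 1, against 6.90, 4.73 and 6.49 FPKM and 0.0304, 0 and 0 FPKM in PBS. Batf3, a transcription factor that this subset needs, lay the other way, at 17.1, 41.6 and 25.4 FPKM at NM day 1 against 49.0, 45.8 and 66.2 FPKM in PBS. Clec9a and Batf3 were not called, and Xcr1 was too low to be tested. Flt3, the growth factor receptor of the lineage, was not analysed here. Against PBS, Cd24 differed by 1.36 at NM day 1 and -1.01 at NM day 28. Epcam of the epithelial list lay near it (1.07 and -1.06), without a call at either day. Sftpc of the same list did not (4.63 and -0.52). The part of epithelium in the Cd24 level was not tested. The sum of 11 identity genes, most of it Sirpa, which macrophages also express, ran from 949 to 958 FPKM in PBS, 681 to 805 FPKM at NM day 1 and 720 to 939 FPKM at NM day 28.

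Later, at NM day 28, the regulator Id2 was the 1 identity gene above PBS (0.72), and Clec10a (-3.57), Cd24 (-2.37) and Irf8 (-1.06) were lower than at NM day 1. At NM day 1, 1 of the 3 higher genes was left without NM1d-1 or PBS-1, and the calls of Cd24, Irf8 and Sirpa were lost in at least 1 of the fits without NM1d-0, NM1d-1, PBS-0 or PBS-1 (adjusted p up to 0.111, Sirpa without NM1d-0). Id2 did not pass without NM28d-0, NM28d-1, NM28d-2, PBS-0 or PBS-1 (up to 0.0980). Without NM28d-1, 2 of these genes were lower than PBS at NM day 28.

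T cells are the targets of Ccl17 and Ccl22. The sum of T cell markers was higher in 3 of 3 NM day 1 libraries than in any PBS library, as were 15.2% of the genes tested. Of 10 tested T cell markers 2 rose at NM day 1, Cd2 (2.20) and Cd8a (1.39), with 5 at an unadjusted p under 0.05. The summed level of 17 T cell genes ran from 20.7 to 33.4 FPKM in PBS, 48.1 to 57.1 FPKM at NM day 1 and 27.7 to 39.4 FPKM at NM day 28. A large part of the rise of this sum at NM day 1 lay in Cd2 (1.53 ± 0.278 to 10.8 ± 2.42 FPKM) and Cd8a (3.80 ± 1.62 to 11.2 ± 2.42 FPKM; SD, n = 3). Cd2, Cd8a and Cd4 are not confined to T cells in rats, and the part of other cells in this sum was not tested. Among defining genes, Cd3e was listed at 0 in all libraries except NM1d-1 (0.543 FPKM), and Cd40lg at 0 in all 9. The other CD3 chains lay above 0: Cd3g stood at 2.10, 5.66 and 4.71 FPKM at NM day 1 against 0.539, 2.23 and 0 FPKM in PBS, and Cd3d at 1.27, 1.87 and 0.428 FPKM against 0, 1.01 and 0 FPKM. Neither was called. Foxp3, the factor of regulatory T cells, stood at 3.81 ± 0.346, 4.86 ± 0.269 and 5.41 ± 2.35 FPKM in PBS, NM day 1 and NM day 28, and Cd4 at 1.12 ± 0.293, 2.82 ± 1.01 and 2.46 ± 1.59 FPKM (SD, n = 3), and neither passed at NM day 1 (limma adjusted p = 0.572 and 0.159). The part of T cells in the levels of the 4 genes was not tested.

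By NM day 28, 0 of the 10 T cell markers were called against PBS by limma, with 2 at an unadjusted p under 0.05, and Cd8a (-2.26) and Cd2 (-1.56) were lower than at NM day 1. Replicate 1 of NM day 28, where Ccr7 was highest, had 6.87 FPKM of Cd2, against 1.81 and 1.73 FPKM in replicates 0 and 2. Cd3g was also highest there (0, 2.64 and 0 FPKM in replicates 0, 1 and 2). Cd4 was instead highest in replicate 2 (0.940, 2.33 and 4.12 FPKM), and Foxp3 was lowest in replicate 1 (6.8, 2.7 and 6.7 FPKM). At NM day 1, Cd2 was lowest in replicate 0 (8.14 FPKM), where Ccr7 was highest. A single T cell gene was left higher at NM day 1 without any of the NM day 1 libraries or without PBS-0 or PBS-2, where Cd8a did not pass (adjusted p up to 0.118). A single one was left lower at NM day 28 than at NM day 1 without NM1d-1, NM1d-2, NM28d-0 or NM28d-2, where Cd2 did not pass (up to 0.0747).

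**Figure D3:**
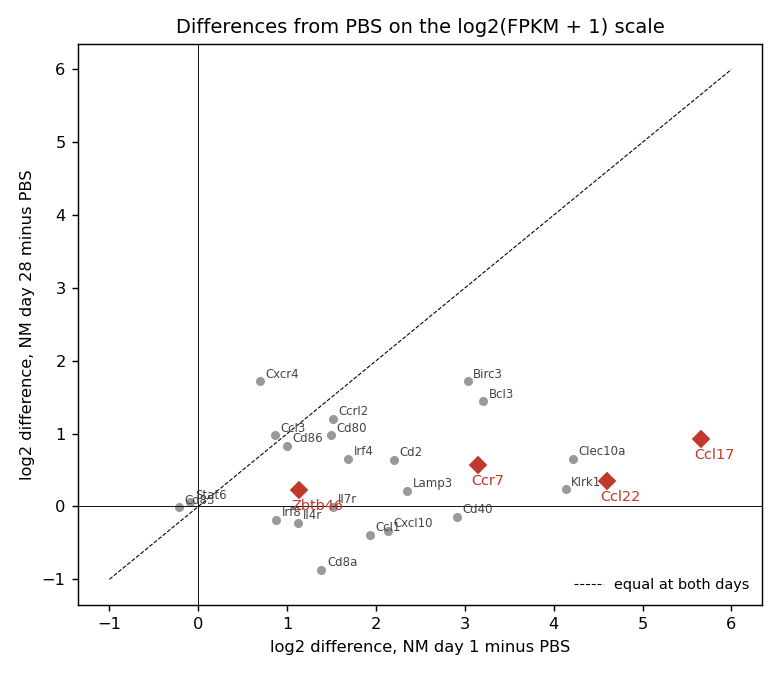
Log2 difference from PBS at NM day 1 (horizontal) and NM day 28 (vertical) on the log2(FPKM + 1) scale for the 4 genes (red diamonds) and for named chemokine, cytokine signalling, dendritic and lymphocyte genes (grey). Ccl17 lies at 5.66 and 0.93, Ccl22 at 4.60 and 0.35, Ccr7 at 3.15 and 0.56 and Zbtb46 at 1.13 and 0.22; both axes use the same PBS libraries.

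Markers of other cells were also higher at NM day 1. Of 9 tested monocyte and recruited macrophage genes 7 rose, among them Itgam (3.45), Fn1 (2.38), Plac8 (4.06), Vcan (2.26), Ly6c (18.8 ± 14.0 FPKM at NM day 1) and Ccr2 (6.39 ± 2.96 FPKM; SD, n = 3), and their list summed to 80.4 to 85.5 FPKM in PBS, 220 to 294 FPKM at NM day 1 and 162 to 222 FPKM at NM day 28, with Ccr2 and Ly6c listed at 0 in each PBS library. Reads of Ly6c may be shared with near-identical copies. Of 7 neutrophil genes 5 rose, S100a9 (5.81), S100a8 (4.28), Cxcr2 (3.80), Csf3r (2.46) and Retnlg (23.9 ± 12.7 FPKM, SD, n = 3, listed at 0 in each PBS library), with sums of 72.6 to 107 FPKM in PBS, 532 to 906 FPKM at NM day 1 and 211 to 723 FPKM at NM day 28. Of 9 alveolar epithelial genes 5 rose, Sftpb (4.68), Sftpc (4.63), Sftpa1 (4.17), Cdh1 (1.98) and Ager (1.23), with sums of 199 to 324, 901 to 2953 and 223 to 309 FPKM and Sftpd listed at 0 in all 9 libraries. Sftpc alone stood at 582 to 2231 FPKM at NM day 1. Whether these cells contributed to the levels of the 4 genes was not tested, and in these bulk libraries fewer cells of a type and less RNA per cell cannot be told apart.

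Zbtb46 is shared with endothelium, where 2 of 4 tested markers rose at NM day 1, Plvap (2.09) and Lyve1 (1.41), with 3 at an unadjusted p under 0.05. Vwf, a secreted protein of endothelium, was not called and lay below PBS, at 1.77, 1.47 and 0.873 FPKM at NM day 1 against 2.46, 2.52 and 3.94 FPKM in PBS. The 7 endothelial genes summed to 39.1 to 42.9 FPKM in PBS, 43.1 to 54.5 FPKM at NM day 1 and 20.9 to 32.0 FPKM at NM day 28, most of it Pecam1, which leukocytes also express. The defining gene Cdh5 stood at 0 to 0.497 FPKM at NM day 1 and 0.0785 to 0.113 FPKM in PBS, and Prox1, a lymphatic marker, was listed at 0 in all PBS and NM day 28 libraries. Among lymphocyte lists, Klrk1 was the 1 of 3 natural killer genes that rose (4.13) and Blk the 1 tested B cell gene (1.19), with sums of 5.60 to 5.88 FPKM in PBS against 39.1 to 47.3 FPKM at NM day 1 for the former and 1.46 to 7.91 against 1.98 to 3.62 FPKM for the latter. Most of the natural killer sum at NM day 1 was Klrk1 itself (32.0 to 40.4 FPKM). Ncr1 stood at 0.392 to 1.06 FPKM there and was not called. The part of these cell types in the levels of the 4 genes was not tested. Calls at NM day 1 ended for Lyve1 without NM1d-0, NM1d-1, PBS-0 or PBS-1 (adjusted p up to 0.0716), for Blk without NM1d-0, NM1d-2, PBS-0 or PBS-1 (up to 0.117) and for Ager without NM1d-0, NM1d-1 or PBS-0 (up to 0.111).

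Of the 7 resident macrophage markers tested, 2 rose at NM day 1, Chi3l1 (3.85) and Car4 (3.33), and the lipid-sensing receptor Pparg fell (-0.57), its call ending without NM1d-0 or NM1d-1 or any of the PBS libraries (adjusted p up to 0.124). At NM day 28, where the 4 genes overlapped PBS, several of these lists still held genes above PBS. Among them were S100a9 (5.41), S100a8 (3.49), Cxcr2 (2.10) and Csf3r (1.73) of the neutrophil list, Itgam (2.75) and Fn1 (2.54) of the monocyte list, Chi3l1 (2.52) and Car4 (2.46) of the resident macrophage list, and Ncr1 (1.37) of the natural killer list. Krt18 (-2.68) and Mrc1 (-0.73) were below PBS. Calls at NM day 28 ended for Csf3r without NM28d-0, NM28d-2 or PBS-0 (up to 0.0750), for Ncr1 without PBS-1 (0.0569) and for Mrc1 without NM28d-0 or NM28d-2 or any of the PBS libraries (up to 0.112). The Chi3l1 call rests on summing its transcripts: the one with the higher mean over all 9 libraries stood at 32.6 to 61.0 FPKM at NM day 1 and at most at 0.0119 FPKM in PBS and at NM day 28, and the other at 8.42 to 27.6 FPKM at NM day 28 against 1.31 to 3.44 FPKM in PBS.

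**Figure D4:**
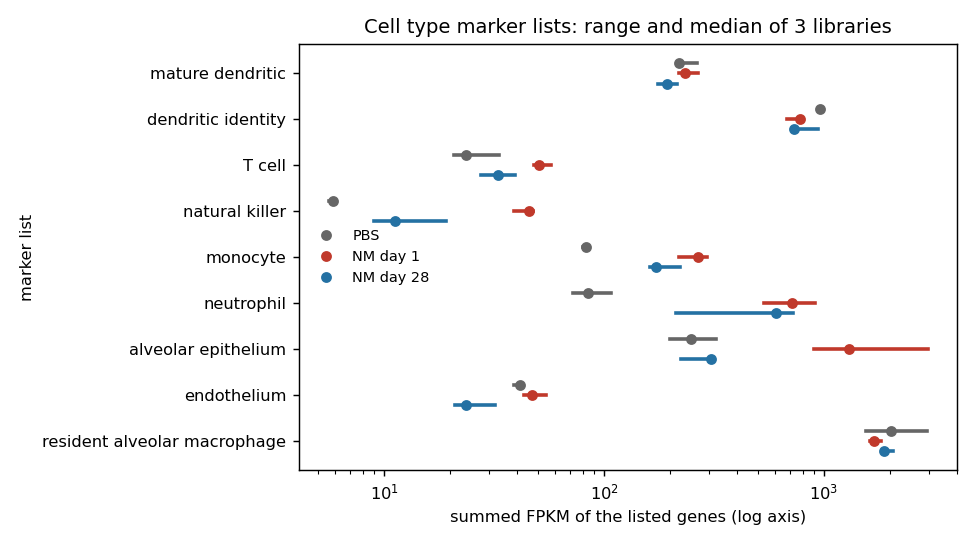
Summed FPKM (log axis) of 9 marker lists in PBS (grey), NM day 1 (red) and NM day 28 (blue), as the range (line) and median (point) of 3 libraries. The T cell, natural killer (mostly Klrk1), monocyte, neutrophil and alveolar epithelium sums at NM day 1 lie above PBS. The endothelium sum does so by a small margin (lowest 43.1 FPKM, against at most 42.9 FPKM in PBS). The mature dendritic and resident macrophage sums overlap PBS, and the dendritic identity sum lies below it (681 to 805 against 949 to 958 FPKM).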

How the data were processed

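Rat alveolar macrophage RNA in 9 libraries (3 PBS, 3 NM day 1, 3 NM day 28) was sequenced as paired ends after a TruSeq preparation, per the labels' protocols. The submitters' processing notes name TopHat, Cuffdiff and the build rn4, without versions. Per transcript the authors deposited FPKM under RefSeq identifiers (18197 rows), which are not counts, and absolute depth is unknown. Symbols came from a RefSeq table of GRCr8 (94.5% of rows). Rows were summed per gene, and 9885 genes with FPKM of at least 1 in at least 3 libraries entered a limma fit (version 3.58.1, R 4.3.3, trended variance) on log2(FPKM + 1), with 3 group means over all 9 libraries, Benjamini-Hochberg adjustment and a threshold of 0.05. The addition of 1 makes fold changes of low genes smaller than the ratio of FPKM.

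The 4 genes and the 14 gene lists were chosen with earlier results of these data known. Named were these 4, a fixed set of pathway genes, for each list and comparison the called genes with the lowest p (3 at most), and the 5 most similar profiles; other called list members were named after their values were seen, and some called members are not reported here. The labels call the replicates biological, with no animal named for each library. Alternatives were pseudocounts of 0.1 and 5, no filter, median-of-ratios scaling, quantile normalisation, isoforms singly, only the 6 libraries compared, the replicate number as a block, and each library left out. The fit was tested on simulated data. Summaries and figures were made with pandas 2.3.3, matplotlib 3.10.9 and numpy 2.4.6 in Python 3.11.15.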

Additional observations from a re-analysis of the deposited data

Results flagged for a closer look

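The effect of NM against PBS differed between day 1 and day 28 for 42 of the named genes outside the 4, by limma's test of NM day 28 against NM day 1 with Benjamini-Hochberg adjustment. Both effects share the PBS libraries. Genes were named partly because this same test called them, so the count of 42 is set by the selection and tests nothing. Of the 110 list genes tested, named or not, 40 were lower and 3 higher at NM day 28. Over all 9885 genes tested, 6.88% were lower and 4.75% higher. The lists were themselves chosen with earlier results known, so these shares were not compared by a test. Values are the log2 difference, NM day 28 minus NM day 1. Of the lymphocyte-guiding chemokines and receptors they were Cxcl10 (-2.48), Ccl1 (-2.32) and Ccl5 (-1.95). In signalling of interleukin 4, GM-CSF and TSLP they were Il7r (-1.52), Il4r (-1.34), Socs1 (-1.24), Il1rl1 (-1.18), Irf4 (-1.04) and Cish (-1.03). The NF-kappaB genes were Bcl3 (-1.76), Birc3 (-1.31), Nfkb1 (-0.51) and Nfkbib (0.99). From the dendritic lists came Cd40 (-3.06), Lamp3 (-2.13), Marcksl1 (-1.87), Clec10a (-3.57), Cd24 (-2.37) and Irf8 (-1.06). The lymphocyte genes were Klrk1 (-3.90), Cd8a (-2.26), Cd2 (-1.56) and Blk (-1.28). Monocyte and neutrophil lists gave Plac8 (-4.75), Ly6c (-3.55), Vcan (-2.71), Ccr2 (-2.34), Retnlg (-2.70) and Cxcr2 (-1.70). Endothelial genes were Plvap (-2.11), Lyve1 (-1.45) and Pecam1 (-0.74). The remaining genes, of epithelium and resident macrophages, were Sftpc (-5.15), Sftpb (-4.53), Sftpa1 (-3.82), Krt18 (-2.98), Cdh1 (-2.37), Krt8 (-2.37), Epcam (-2.13), Ager (-1.01), Napsa (0.84) and Pparg (0.61). Ccl1 and Ccl5 were listed at 0 in each NM day 28 library, so their values depend on the 1 added before logarithms. Calls between the NM groups of Ager, Blk, Krt8, Lyve1, Napsa, Pecam1, Pparg and Retnlg, not yet described, did not pass in at least 1 fit without NM1d-0, NM1d-1, NM1d-2, NM28d-0, NM28d-1, NM28d-2 or PBS-2 (adjusted p up to 0.160, Ager without NM1d-1). Of the 42 named genes, 39 were lower and 3 higher at NM day 28. The 4 genes were not tested.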

How the results depend on the processing

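The log2 differences of the 4 genes kept their sign under every alternative except Zbtb46 at NM day 28 against PBS (-0.004 without NM28d-2), and 118 of 132 alternative values moved by less than 1 SD of replicates. The others came from the pseudocount. At 5, NM day 1 minus PBS was 4.57 for Ccl17, 3.02 for Ccl22, 1.52 for Ccr7 and 0.44 for Zbtb46, and NM day 28 minus NM day 1 was -2.91 for Ccl22, -1.35 for Ccr7 and -0.37 for Zbtb46. At 0.1, NM day 1 minus PBS was 5.73 for Ccl22, 5.0 for Ccr7 and 1.86 for Zbtb46, NM day 28 minus NM day 1 was -5.02 for Ccl22, -3.63 for Ccr7 and -1.43 for Zbtb46, and NM day 28 minus PBS was 1.37 for Ccr7. With 1 library left out, genes called ran from 252 to 656 higher and 66 to 718 lower at NM day 1 (522 and 453 with all), 154 to 367 and 117 to 426 at NM day 28 (303 and 393), and 225 to 628 and 394 to 775 between the NM groups (470 and 680). With only the 6 libraries compared, 212 genes were lower at NM day 28 than PBS. Over all lists, genes called lower at NM day 1 numbered 0 to 4 with 1 library left out and 1 after quantile normalisation. Those lower at NM day 28 than PBS numbered 1 to 8, and 1 with only the 6 libraries compared. Those higher at NM day 28 than at NM day 1 numbered 1 to 4. Quantile normalisation gave 584 higher and 603 lower genes between the NM groups and 459 and 307 at NM day 1, and median-of-ratios scaling gave 542 and 337 at NM day 1. Replicate numbers are shared by the groups, but same-numbered libraries showed no clear pairing. Their deviations from group means correlated between -0.104 and 0.196, and those of differently numbered libraries between -0.26 and 0.248. With the replicate block, 481 genes were higher and 347 lower at NM day 1, 278 and 348 at NM day 28, and 411 and 642 between the NM groups. Beyond single libraries, 1 or more other settings ended calls at NM day 1 of Blk, Cacnb3, Ccl5, Cd200, Cd24, Cd80, Cd8a, Cish, Cxcl10, Jak3, Marcksl1, Pdcd1lg2, Pparg and Sirpa, at NM day 28 of Cacnb3, Car4, Chi3l1, Csf3r, Cxcr4, Mrc1 and Nfkb2, and between the NM groups of Ager, Blk, Cish, Il4r, Irf4, Lyve1, Nfkb1, Retnlg and Socs1; for each the cause was not tested. Depth limits Ccr7, whose PBS and NM day 28 levels may rest on as few as 1 to 7 fragments.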
